A study of Mus musculus with 4 samples.

Results

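The histone genes of C2C12 cells are described here, C2C12 being a line of mouse myoblasts, the dividing precursors of muscle fibres. A gene was included when its symbol matched a set of name patterns (Hist1h to Hist4h, H1f, H2ac, H2bc, H3c and H4c followed by a number, and names starting with H2az, H3f3, H2ax or Macroh2a), which selected 81 of 55416 genes. Of these, 65 were classed as replication-dependent, 13 as variant (replication-independent), and 3 were antisense or pseudogene entries (H1f11-ps, H2ac5-ps and H3f3aos). RNA was sequenced 24 h after transfection of 3 µg of DNA with the lipid reagent Lipofectamine 2000. The DNA of 1 group was for lamin A of the wild-type sequence and that of the other for K97E lamin A, a form the labels tie to dilated cardiomyopathy. The cell line label of all 4 samples is C2C12, though the titles of the 2 K97E samples spell it C1C12. There were 2 libraries in each group, and no untransfected cells were analysed here. Both groups were transfected; the sources used here give neither the species and promoter of the DNA nor the share of cells that took it up. The labels call the libraries biological replicates without naming separate cultures, so p-values reflect the spread among these libraries alone, which may be technical.

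Histones are the proteins that DNA is wound around in the nucleosome, with H2A, H2B, H3 and H4 forming the core and H1 binding the linker. As a rule the replication-dependent genes lie in clusters, lack introns and are transcribed mainly in S phase. Their mRNAs typically end in a conserved stem-loop bound by Slbp in place of a poly(A) tail. Variant genes such as H3f3a and H3f3b (H3.3), H2az1 and H2az2 (H2A.Z) and Macroh2a1 are expressed outside S phase as well, and their mRNAs are spliced and polyadenylated. Lamin A, the protein encoded by the transfected DNA, is a filament of the nuclear lamina, which contacts chromatin at the nuclear edge.

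The stem-loop is the sequence that marks the replication-dependent class, and an mRNA cut just after it carries no poly(A) tail. The sources used here name a stranded mRNA kit and do not state whether polyadenylated RNA was selected. A 6-base-pair stem opening with GG, with a loop of 4 bases starting with TT, was searched on the transcript strand in the GENCODE M21 transcripts (GRCm38), matched by Ensembl gene ID for all 81 genes. It was found in a transcript of 41 of the 65 replication-dependent genes and in 1 of the 13 variant genes, H2ax. The same search, past the coding end in every transcript, found it in 0.476% of 21826 other protein-coding genes. Sites of selected members, not in every case the most abundant, are shown with the stem-loop in capitals and up to 5 bases on each side in lower case.
H1f2: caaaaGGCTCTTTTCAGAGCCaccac
H2bc8: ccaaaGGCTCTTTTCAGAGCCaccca
H2bc12: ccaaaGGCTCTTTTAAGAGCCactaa
H2ac24: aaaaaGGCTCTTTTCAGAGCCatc
H4c9: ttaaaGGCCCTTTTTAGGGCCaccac
H4c8: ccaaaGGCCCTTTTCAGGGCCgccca
H2ax: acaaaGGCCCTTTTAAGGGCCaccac
The form of H1f2 was shared by 24 members of the H1, H2A, H2B and H3 types, and the form of H2bc12 by 6 members of the H1, H2B and H3 types. None of the 10 H4 genes with a site used either: 6 held the form of H4c8, 2 the form of H4c9 and 2 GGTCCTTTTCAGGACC. The form of H2ax occurred in no other member.

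The annotated transcripts differ in where they end relative to this site. In 19 of the 41 replication-dependent genes at least 100 bases of annotated transcript followed the stem-loop, reaching 840 bases in H1f2 and 4884 in H1f3. In the other 22 fewer than 100 bases followed it, as in H2ac24 with 3 and H2bc12 with 30. In 24 genes no site was found, H2bc4 among them, which says only that these letters are not in their annotated transcripts. The median of the mean TPM (transcripts per 1000000) was 3.42 for the genes with a long stretch past the stem-loop, 3.51 for those with a short one and 4.33 for those with none found. Their longest transcripts had medians of 1249, 484 and 408 bases. The share of their 100-base stretches found in other genes had medians of 15.1%, 54.5% and 63.2%. TPM divides reads by transcript length, so these levels do not compare the reads of the sets.

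Promoters were available for 68 of the 81 members in a RefSeq table (GRCm38.p6, 250 bases before to 50 after each start, 69 windows). A CCAAT motif, searched on both strands, stood in all windows of the 6 H1, 17 H2A, 15 H2B and 10 H3 replication-dependent promoters, in 3 of 11 H4 promoters, and in 37.4% of all 32851 windows of the table. The octamer ATTTGCAT, on either strand, stood in 1.74% of all windows. Of the replication-dependent promoters, 7 of 15 H2B and 6 of 17 H2A promoters held it, and no H1, H3 or H4 promoter did. TATAAA, on either strand, stood in 34 of 59 replication-dependent windows and 13.6% of all windows. Of the 10 variant windows, 6 held CCAAT, 1 the octamer and 1 TATAAA, with the octamer and TATAAA both in H3f3b. Many H2A and H2B genes are divergent neighbours, so their windows overlap and are not independent. The 250 bases before the start of H2bc8, H1f2 and H4c9 show these arrangements for an H2B, an H1 and an H4 gene, with matches to the 3 motifs in capitals; a match is a description of the letters, not a bound site.
H2bc8 (chr13:23571150-23571399, plus strand): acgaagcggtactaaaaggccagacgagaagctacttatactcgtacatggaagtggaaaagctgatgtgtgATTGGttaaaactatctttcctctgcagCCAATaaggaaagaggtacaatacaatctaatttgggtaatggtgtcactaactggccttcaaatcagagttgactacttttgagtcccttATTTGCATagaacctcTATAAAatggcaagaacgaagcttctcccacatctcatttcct
H1f2 (chr13:23738557-23738806, plus strand): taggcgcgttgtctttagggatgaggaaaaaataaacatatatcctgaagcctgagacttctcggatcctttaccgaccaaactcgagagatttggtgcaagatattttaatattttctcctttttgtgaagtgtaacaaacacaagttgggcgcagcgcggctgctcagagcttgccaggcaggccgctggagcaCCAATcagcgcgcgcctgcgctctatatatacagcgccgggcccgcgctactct
H4c9 (chr13:22041363-22041612, minus strand): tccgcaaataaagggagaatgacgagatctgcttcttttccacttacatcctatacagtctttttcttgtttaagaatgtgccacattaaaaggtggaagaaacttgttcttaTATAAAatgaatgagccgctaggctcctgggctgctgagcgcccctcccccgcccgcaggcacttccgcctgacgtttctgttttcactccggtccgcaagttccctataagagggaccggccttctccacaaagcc
In H2bc8 the octamer began 59 bases and TATAAA 43 bases before the start, with CCAAT matches at 150 and, on the other strand, at 178 bases. H1f2 held 1 CCAAT match at 54 bases and H4c9 1 TATAAA match at 137 bases.

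Variant genes made up most of the histone mRNA signal in every library. In the order wild-type replicate 1, wild-type replicate 2, K97E replicate 1 and K97E replicate 2, which is kept for every set of 4 values that follows, the variant genes summed to 2106, 2203, 2327 and 2204 TPM. The replication-dependent genes summed to 637, 782, 810.0 and 565 TPM. They were thus 23.2%, 26.2%, 25.8% and 20.4% of the TPM of both classes, the 2 lowest and the 2 highest shares each holding 1 library of each group. H1f2 and H2bc4 alone carried 45.3%, 47.4%, 45.6% and 42.0% of the replication-dependent sum. Whether polyadenylated RNA was selected is not stated, so these shares describe the sequenced libraries and not the histone mRNA content of the cells. Since TPM divides reads by transcript length, each sum also depends on which transcript lengths are annotated. As estimated reads per 1000000 (RPM), with no length term, the replication-dependent genes summed to 319, 400.5, 395 and 266. The variant genes summed to 1855, 1856, 1857 and 1859 on that scale.

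**Figure D1:**
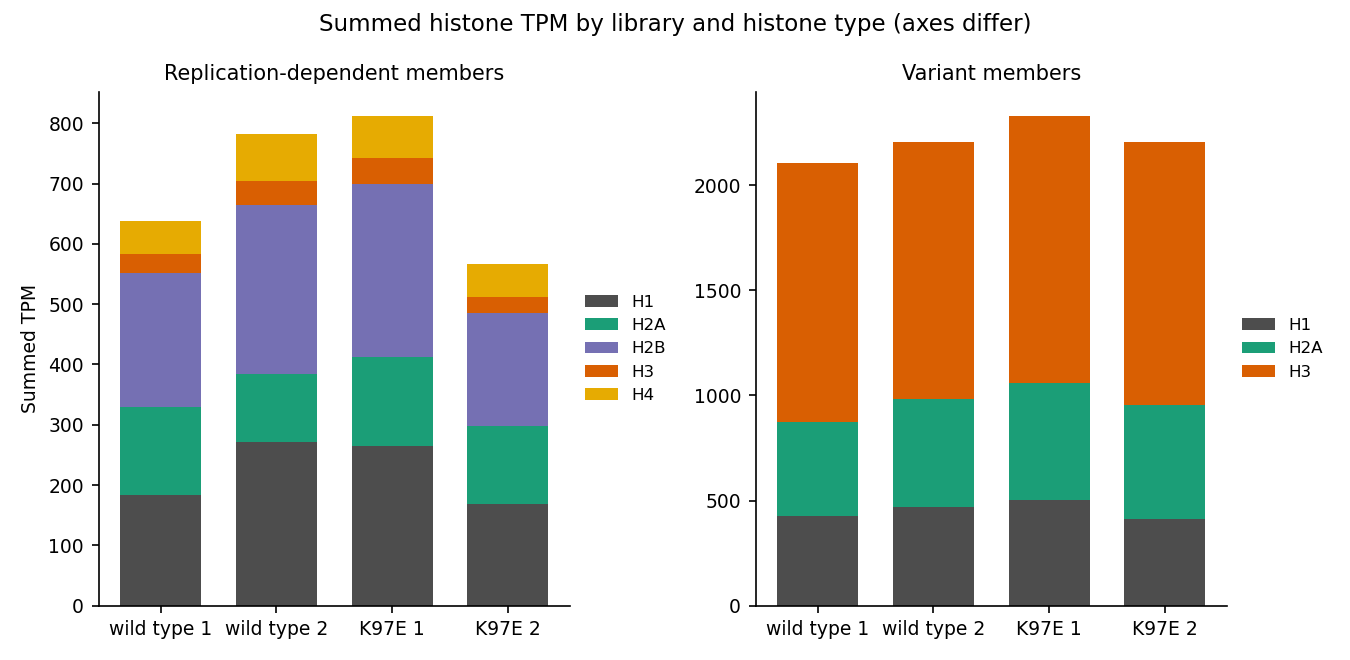
Summed TPM (vertical axes, starting at 0, different in the 2 panels) of the replication-dependent and variant histone genes in each of the 4 libraries, stacked by histone type. The replication-dependent sums of wild-type replicate 2 and K97E replicate 1 (782 and 810.0 TPM) stand above those of wild-type replicate 1 and K97E replicate 2 (637 and 565 TPM), while the variant sums lie between 2106 and 2327 TPM.

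The comparison of the groups asks whether K97E lamin A changed histone mRNA levels relative to its wild-type form. No histone gene was called. Of 71 members with a mean TPM of at least 0.5, limma's moderated test (two-sided, on log2 of scaled TPM plus 0.5, Benjamini-Hochberg over all genes tested) put 0 below an adjusted p of 0.05, against 0.00613% of all 16304 genes tested, which is 1 gene. With voom weights, and under the other settings tried, 0 members were called as well. At an unadjusted p under 0.05 there were 4 members, H3f3a, H2ac14, H2ac22 and H3c1, beside 3.68% of all genes tested. The adjusted p-values of the members lay at 0.965 or above, and an exact permutation test of 2 against 2 could not go below 0.33. The remaining 10 members were below the filter: 4 replication-dependent genes (H3c13, H1f6, H2ac21 and H2ac1), 4 variant genes (Macroh2a2, Macroh2a3, H1f9 and H1f8) and 2 antisense or pseudogene entries. H1f8, the linker histone of the oocyte, was listed at 0 in all 4 libraries.

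On the log2 scale the median difference, K97E minus wild type, was -0.04 over the 61 tested replication-dependent genes and 0.04 over the 9 tested variant genes, beside -0.0017 over all genes tested. Of the replication-dependent genes 26 differed upwards and 35 downwards, beside 8075 and 8229 of all genes tested. TPM as deposited, without further scaling, moved all genes upwards, to 10328 and 5976 with a median of 0.052. Under it the replication-dependent split was 31 to 30 and the median 0.0095, still below that of all genes. The replication-dependent median was -0.30 when wild-type replicate 1 was left out and -0.17 when K97E replicate 1 was, but 0.18 when wild-type replicate 2 was and 0.14 when K97E replicate 2 was, so its direction rested on which library was left out. The summed TPM of this class was 709.8 ± 102 with wild-type lamin A and 688 ± 173 with K97E (SD, n = 2 each), a log2 ratio of -0.046. H2ax was classed as variant though a stem-loop was found in it. With H2ax counted as replication-dependent, the log2 ratio was -0.0065 for this class and 0.064 in place of 0.073 for the variant genes. Groups did not overlap, after scaling, for 12 of the 61 replication-dependent genes and 3 of the 9 variant genes, beside 33.1% of all genes tested.

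**Figure D2:**
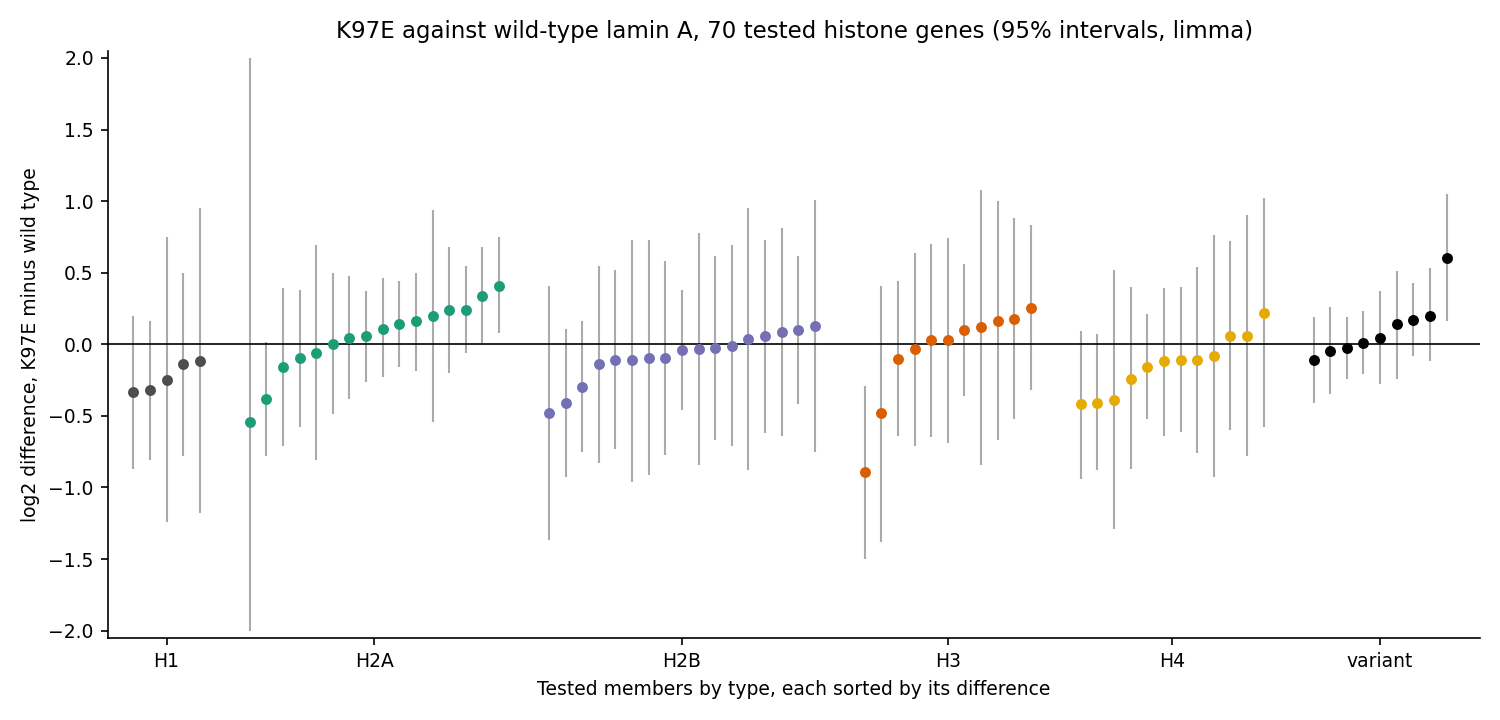
log2 difference, K97E minus wild type (vertical axis), of 70 tested histone genes (points) with limma's 95% intervals (grey lines), grouped on the horizontal axis into the 5 replication-dependent types and the variant genes. Most intervals cross 0; that of H2ac18 (-5.64 to 4.56) runs beyond the axis.

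Among the variant types, the H3.3 genes together had the largest summed TPM in every library, though H1f0 and H2az1 each stood above H3f3a. H3f3b (ENSMUSG00000016559; GRCm39 chromosome 11, 115912738 to 115918788, minus strand) stood at 1078, 1052, 997 and 1055 TPM, more than any other member. Its groups overlapped as deposited, though not after scaling, and its log2 difference was -0.11 (SE 0.12). H3f3a (ENSMUSG00000060743; chromosome 1, 180628397 to 180641508, minus strand) encodes the same protein and stood at 106, 112, 211 and 141 TPM, so that both K97E libraries lay above both wild-type libraries. Its log2 difference was 0.60 (SE 0.18, limma unadjusted p = 0.0167, adjusted p = 0.965). H3f3c, a single-exon H3.3 copy, stood at 51.8, 55.2, 58.5 and 53.7 TPM with overlapping groups, and 56.7% of its 100-base stretches occur in transcripts of another gene.

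The difference of H3f3a lay in which transcript its reads were credited to. The 888-base transcript ENSMUST00000081026 was listed at 0, 0, 141 and 50.6 TPM. The 2841-base transcript ENSMUST00000161308 stood at 101, 107, 63.1 and 87.3 TPM, higher in both wild-type libraries than in either K97E library. Estimated RPM over the whole gene were 137, 144, 141 and 137, which overlapped between the groups, and on that scale, chosen after the data were seen, the log2 difference was -0.05. StringTie divides reads among transcripts by a model, and a read counts for more TPM on a shorter transcript. Gene TPM of H3f3a and its reads therefore gave different answers, and no test of transcript use was run.

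H3f3b and Macroh2a1 also had transcripts whose credited levels did not overlap between the groups while their gene totals differed by -0.11 (SE 0.12) and -0.03 (SE 0.09) on the log2 scale. The H3f3b transcript ENSMUST00000106454 stood at 135, 81.7, 226 and 365 TPM, and ENSMUST00000016703 at 907, 898, 701 and 610 TPM. Macroh2a1 encodes macroH2A1, an H2A variant with a large globular domain, enriched on silent chromatin, and stood at 98.6, 92.8, 100.1 and 95.8 TPM. Its transcript ENSMUST00000016081 stood at 47.1, 32.8, 9.5 and 16.3 TPM, and ENSMUST00000045788 at 34.3, 43.5, 71.0 and 60.9 TPM. These 3 genes were picked out after their values were seen, and the share of other genes with such transcripts was not computed.

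**Figure D3:**
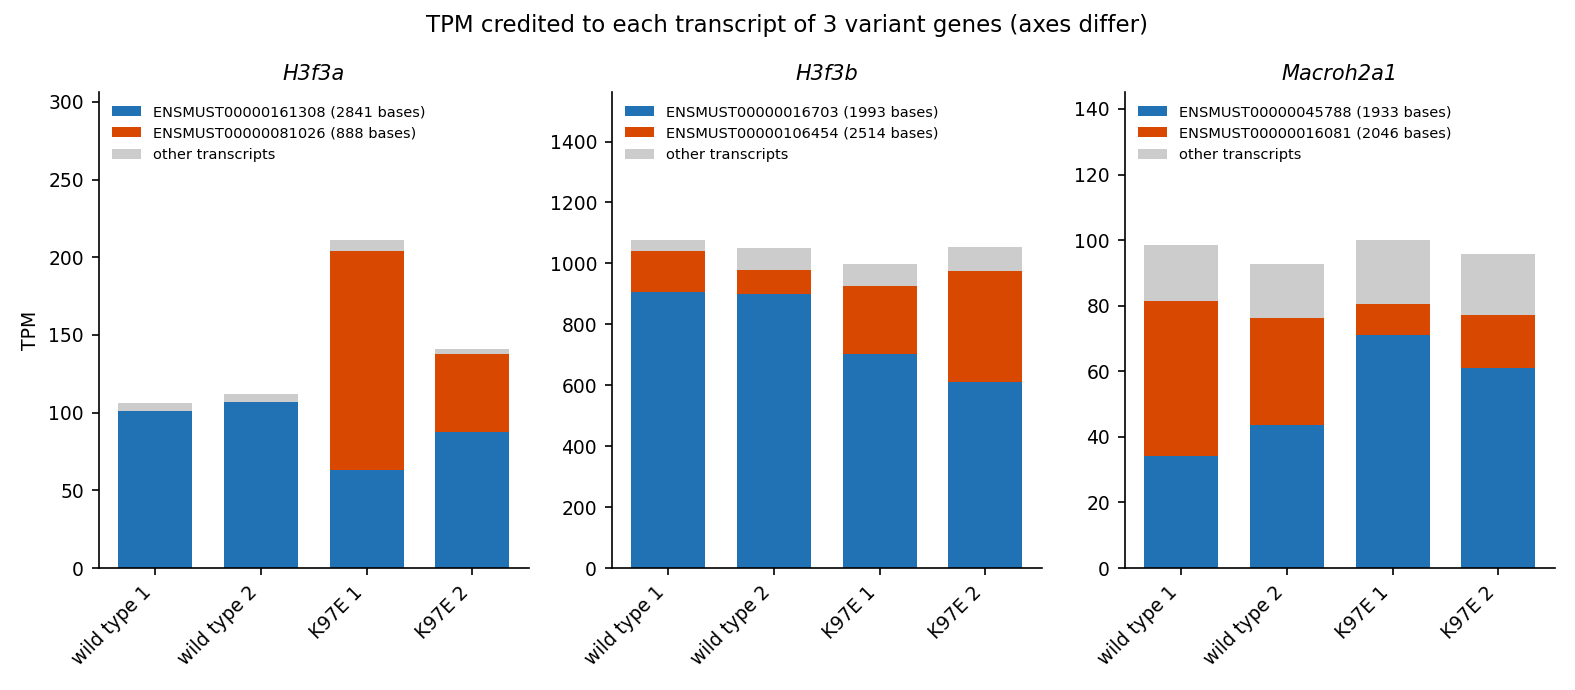
TPM (vertical axes, starting at 0, different in each panel) credited to the 2 most abundant transcripts and the sum of the others for H3f3a, H3f3b and Macroh2a1 in each library. The orange H3f3a transcript, ENSMUST00000081026, is at 0 in both wild-type libraries and at 141 and 50.6 TPM in the K97E libraries.

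The H2A variants H2az1, H2az2 and H2ax had higher means with K97E, without a call. H2az1, which encodes H2A.Z found at promoters, stood at 203, 249, 264 and 276 TPM, with both K97E libraries above both wild-type libraries as deposited and with overlap after scaling. Its log2 difference was 0.20 (SE 0.13). H2az2 stood at 44.3, 57.2, 63.3 and 52.5 TPM with overlapping groups. H2ax, whose protein is phosphorylated at DNA breaks, stood at 98.8, 114, 129.7 and 120.1 TPM with no overlap, and its log2 difference was 0.17 (SE 0.10). The 95% interval of that difference ran from -0.083 to 0.43.

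The replacement linker histones did not separate the groups. H1f0, the linker variant associated with cells that have left the cycle, stood at 386, 430.0, 454 and 373 TPM. H1f10 stood at 39.7, 40.3, 49.2 and 37.3 TPM. In both genes K97E replicate 1 was the highest library and K97E replicate 2 the lowest, and their log2 differences were -0.04 (SE 0.12) and 0.04 (SE 0.13).

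**Figure D4:**
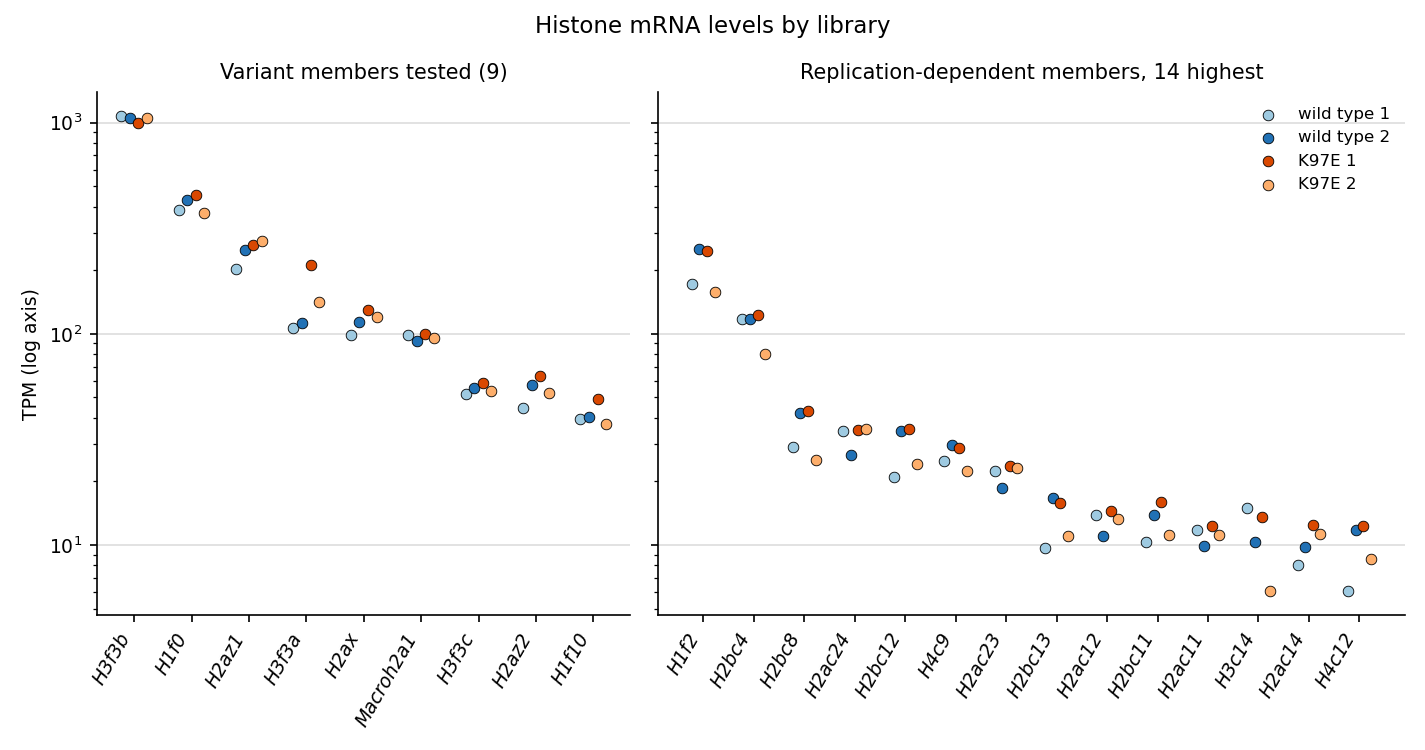
TPM (log axis) of the 9 tested variant genes and the 14 replication-dependent genes with the highest mean TPM, with 1 point for each of the 4 libraries. The points of H1f2, H2bc8, H2bc12, H2bc13 and H4c12 are highest in wild-type replicate 2 and K97E replicate 1, and those of H3f3a are highest in the 2 K97E libraries.

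The replication-dependent linker genes all had lower means on the log2 scale with K97E, 5 of 5 tested, at differences from -0.33 to -0.12, though 3 of the 5 differed upwards without K97E replicate 2 or without wild-type replicate 2. H1f2 (ENSMUSG00000036181; chromosome 13, 23922791 to 23924350, plus strand) was the most abundant replication-dependent gene, at 172, 253, 246 and 157 TPM. Wild-type replicate 2 and K97E replicate 1 were alike and high, and the groups overlapped throughout, with a log2 difference of -0.14 (SE 0.26). H1f5 stood at 3.64, 7.63, 7.39 and 3.41 TPM, H1f1 at 2.16, 4.88, 3.83 and 2.03 TPM, and both had the same 2 libraries on top. H1f3 stood at 3.41, 4.14, 3.72 and 2.41 TPM on a single annotated transcript of 7425 bases, to which 1072, 1525, 1460 and 892 reads were credited. H1f4 was the exception to the order, at 3.48, 2.97, 2.24 and 2.94 TPM; its exons overlap those of H2bc6.

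The 17 H2B genes, all tested, ranged from 0.55 (H2bc18) to 109 (H2bc4) mean TPM. H2bc4 (chromosome 13, 23868182 to 23876891, plus strand) stood at 117, 118, 123 and 80.5 TPM, with K97E replicate 2 alone low, and a log2 difference of -0.30 (SE 0.18). Its longest GENCODE M21 transcript, at 1156 bases, is far shorter than that stretch of chromosome, so it is annotated as spliced. H2bc8 stood at 29.0, 42.3, 43.0 and 25.3 TPM and H2bc12 at 20.9, 34.6, 35.3 and 24.1 TPM. In these genes the 2 libraries of a group lay further apart than the group means. H2bc13 stood at 9.70, 16.7, 15.8 and 11 TPM and H2bc11 at 10.3, 13.8, 16 and 11.1 TPM, again with wild-type replicate 2 and K97E replicate 1 on top. The log2 differences of H2bc8, H2bc12, H2bc13 and H2bc11 were -0.14 (SE 0.28), 0.06 (SE 0.27), -0.01 (SE 0.28) and 0.10 (SE 0.21). Over the H2B genes 5 differed upwards and 12 downwards, with a median of -0.04, and with TPM as deposited, where all genes shifted upwards as given above, the split was 9 to 8.

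The 16 tested H2A genes were the type in which most members differed upwards, 11 of 16, with a median log2 difference of 0.09 and 11 of 16 also under each other scaling tried, but 8 of 16 without K97E replicate 1. H2ac24 stood at 34.5, 26.7, 35.2 and 35.3 TPM and H2ac23 at 22.4, 18.6, 23.6 and 23.2 TPM, with wild-type replicate 2 alone low in each. H2ac12 stood at 13.8, 11, 14.5 and 13.3 TPM and H2ac11 at 11.8, 9.92, 12.3 and 11.2 TPM, with the same library lowest. Only 4 of the tested H2A genes had under 50% of their 100-base stretches in another gene's transcripts, so reads of most H2A genes can be credited to a near-identical copy. H2ac22 stood at 3.81, 4.26, 5.72 and 5.79 TPM, with no overlap between groups and a log2 difference of 0.41 (SE 0.13, limma unadjusted p = 0.0245, adjusted p = 0.965). H2ac14 stood at 8.0, 9.80, 12.4 and 11.3 TPM, also without overlap, at 0.34 (SE 0.13, limma unadjusted p = 0.0463, adjusted p = 0.965). The 100-base stretches of these 2 genes occur in other genes for 83.3% and 91.7%, and an exon of H2ac14 overlaps another measured gene.

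H2ac18, an H2A gene with near-identical copies, was listed at 21.8, 0.0594, 10.4 and 0.0793 TPM, with 1 high and 1 low library in each group, and was named after its values were seen. All of its 100-base stretches occur in other genes, and its exons overlap those of the predicted genes Gm20634 and Gm20633, with H3c14 next to it on chromosome 3. The reads credited to H2ac18, Gm20634 and H3c14 together came to 25.5, 32.2, 33.9 and 23.1 RPM, and with Gm20633 to 28.2, 33.6, 35.9 and 24.6 RPM. Both sums had wild-type replicate 2 and K97E replicate 1 on top, as H1f2 and H2bc8 did. How reads were divided among these genes was not tested. H3c14 alone stood at 14.9, 10.3, 13.5 and 6.06 TPM.

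The 12 H3 genes, 11 of them tested, and the 12 H4 genes were mostly weak. H3c1 stood at 1.12, 0.915, 0.449 and 0.234 TPM, both K97E libraries below both wild-type libraries, with a log2 difference of -0.89 (SE 0.24, limma unadjusted p = 0.0116, adjusted p = 0.965). That gene rested on 25.4, 24.2, 12.7 and 6.2 estimated reads per library, the fewest of the 4 members with an unadjusted p under 0.05. H3c15, with H3c14 the strongest of the H3 genes, stood at 5.85, 11.7, 12.9 and 6.89 TPM. Other genes hold 61.6% of its 100-base stretches and all of those of H3c14, whose exons overlap those of Gm20634. H4c9 stood at 25.0, 29.9, 28.9 and 22.4 TPM and H4c12 at 6.03, 11.8, 12.3 and 8.62 TPM, both highest in wild-type replicate 2 and K97E replicate 1. Of the H4 genes 3 differed upwards and 9 downwards, with a median log2 difference of -0.12, and without wild-type replicate 2 the split was 8 to 4. The H3 split was 7 upwards to 4, and 3 to 8 without wild-type replicate 1.

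The order of the libraries seen in H1f2 and H2bc8 recurred across the replication-dependent genes and did not follow the groups. After scaling, wild-type replicate 2 and K97E replicate 1 were the 2 highest libraries for 37 of the 61 tested (60.7%). Of all genes tested, 22.1% had them highest. They were the 2 lowest for 3 (H2ac13, H2ac23 and H2ac24), beside 20.8% of all genes tested. With TPM as deposited they were the 2 lowest for 0, beside 15.2% of all genes tested, and with estimated RPM for 1, beside 17.4%. By type the first count was 4 of 5 for H1, 5 of 16 for H2A, 14 of 17 for H2B, 6 of 11 for H3 and 8 of 12 for H4, and 4 of 9 for the variant genes. The median deviation from a gene's own mean was -0.21, 0.27, 0.11 and -0.17 on the log2 scale. Within the wild-type group the median gap between replicates was 0.41, and within the K97E group 0.30, both larger than the -0.04 between groups. The count with these libraries highest was 38 of 61 with TPM as deposited and 37 of 61 with estimated RPM. Among the 34 genes with under 50% of their 100-base stretches in another gene it was 22, and among the 53 without exon overlap 35. For H2A it was 2 of 4 genes with under 50% shared and 3 of 12 with at least 50%. The median deviations were -0.16, 0.13, 0.11 and -0.22 for those 4, and -0.014, -0.14, 0.079 and 0.011 for those 12. The variant medians were -0.055, 0.038, 0.087 and -0.012. This order was chosen after the values were seen, and it is described, not tested.

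**Figure D5:**
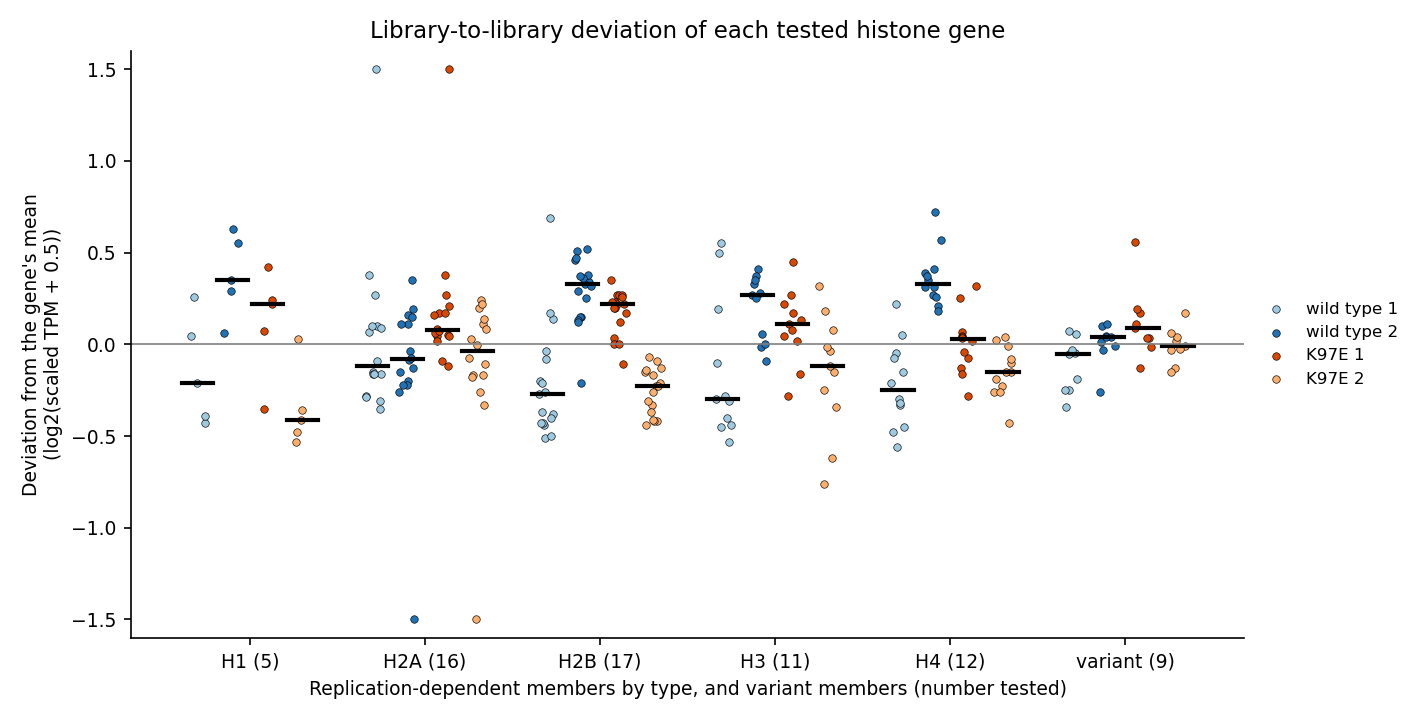
Deviation of each tested histone gene in each library from its own mean over the 4 libraries (vertical axis, log2 scale), by replication-dependent type and for the variant genes, with the median of each library as a black bar and values beyond 1.5 drawn at 1.5 (H2ac18). In H1, H2B, H3, H4 and the variant genes the medians of wild-type replicate 2 and K97E replicate 1 lie above 0. Those of wild-type replicate 1 and K97E replicate 2 lie below 0. In H2A as a whole the medians do not follow this order.

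S phase is when replication-dependent histone mRNA is made. Of 30 S-phase genes tested, among them replication licensing, clamp and polymerase genes, 6 had wild-type replicate 2 and K97E replicate 1 highest and 6 had them lowest. Their median deviations were -0.10, 0.03, -0.01 and 0.08, with wild-type replicate 1 lowest. On the log2 scale 25 of 30 differed upwards with K97E, at a median of 0.08, none with an unadjusted p under 0.05, and 15 of 30 did so without wild-type replicate 1. The count was 28 with FPKM as deposited, 30 with TPM as deposited and 30 with voom, settings under which 9210, 10328 and 9306 of all 16304 genes differed upwards. Cdt1, a licensing factor, stood at 25.1, 29.5, 33.9 and 34.8 TPM, with no overlap and a log2 difference of 0.27 (SE 0.11). Rfc4, of the clamp loader, stood at 19.2, 20.1, 22.9 and 23.3 TPM, also without overlap. In bulk RNA a smaller share of cells in S phase and less histone mRNA per cell cannot be told apart.

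The machinery that makes and removes histone mRNA was measured in lists of known genes, and 0 of them were called by limma, beside the 0.00613% of all genes. Slbp, which binds the stem-loop, stood at 52.6, 61.6, 59.0 and 55.2 TPM, with the same 2 libraries on top and a log2 difference of -0.05 (SE 0.11). Of the 22 tested genes of histone mRNA 3' end processing, 12 differed upwards and 10 downwards. With TPM as deposited, under the same shift of all genes, the split was 19 to 3. With estimated RPM it was 8 to 14, beside 7932 to 8372 of all genes tested. Slbp was the only one with wild-type replicate 2 and K97E replicate 1 highest, beside 22.1% of all genes tested. These libraries were lowest for 11 (50.0%), beside 20.8% of all genes tested. With TPM as deposited that count was 7 (31.8%), beside 15.2%. They were also lowest for 9 of 19 decay genes, 9 of 17 variant exchange genes, 11 of 29 chaperone genes and 6 of 19 transcription genes. With TPM as deposited those counts were 5, 4, 11 and 2. Lsm10 and Lsm11, of the U7 particle that cuts histone pre-mRNA, had 35.8, 36.8, 34.9 and 39.9 TPM, and 2.85, 3.77, 3.97 and 3.93 TPM. Casp8ap2 (FLASH), which works with them, stood at 13.2, 12.8, 12.6 and 12.4 TPM with no overlap, at -0.11 (SE 0.10). Snrpb, a Sm protein gene, had the smallest unadjusted p of this list (0.0641), at 166, 202, 226 and 245 TPM with no overlap.

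Among 19 transcription genes 11 differed upwards and 8 downwards (14 and 5 with TPM as deposited, again with all genes shifted). Npat, the coactivator of histone genes, stood at 17.4, 15.4, 16.4 and 16.1 TPM, and Hinfp, a factor for H4 genes, at 9.49, 11.6, 10.9 and 9.13 TPM, with the order of H1f2. E2f1 and Nelfb differed by 0.13 (SE 0.11) and 0.20 (SE 0.10) without overlap. Among 19 decay genes, 10 differed upwards and 9 downwards (14 and 5 with TPM as deposited). Tut4 and Tut7, which add uridines to RNA ends, differed by -0.26 (SE 0.12) and -0.20 (SE 0.10) without overlap. The order of H1f2 was held by 0 of the 19, beside 22.1% of all genes tested.

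Of the 29 histone chaperone and import genes 12 differed upwards and 17 downwards (16 and 13 with TPM as deposited). Ipo4, an importin that carries H3 and H4, stood at 35.0, 37.5, 50.5 and 42.5 TPM, with both K97E libraries above both wild-type libraries, at 0.30 (SE 0.10, limma unadjusted p = 0.0323, adjusted p = 0.965). It was the only gene of the 7 pathway lists with an unadjusted p under 0.05. Asf1a, which hands H3 and H4 to assembly factors, stood at 30.3, 25.5, 23.4 and 25.6 TPM, at -0.24 (SE 0.13). Of the 17 genes of complexes that exchange variants, 2 differed upwards and 15 downwards, and 12 and 5 without wild-type replicate 1. The split was 9 to 8 for TPM as deposited, which put 10328 of all 16304 genes upwards. Chd1 and Znhit1 of that list differed by -0.15 (SE 0.11) and -0.12 (SE 0.10).

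Further histone variants fell outside the name patterns, and 3 were tested. Cenpa, the H3 variant of centromeres, stood at 59.6, 78.6, 92.2 and 73.0 TPM, and H2aw at 36.7, 49.0, 47.7 and 33.2 TPM. With H2aj, at 26.6, 29.8, 30.5 and 27.8 TPM, all 3 had wild-type replicate 2 and K97E replicate 1 highest.

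The libraries held about 89600000, 106400000, 115600000 and 107800000 estimated reads, and mitochondrial genes took 7.37%, 5.37%, 5.55% and 5.29% of TPM, with wild-type replicate 1 apart. Rmrp and Rpph1, structured RNAs made without a poly(A) tail and looked up after the histone values were seen, had 1.4, 32.2, 3.92 and 5.05 TPM, and 0.567, 14.1, 0.719 and 0.744 TPM. Rny3, also highest in wild-type replicate 2, had 0, 2.25, 0 and 0.636 TPM, and Rny1, highest in wild-type replicate 1, had 1.42, 1.12, 1.20 and 0.490 TPM. None of these 4 RNAs had both wild-type replicate 2 and K97E replicate 1 as its highest libraries. The part of depth, mitochondrial share or tailless RNA in the library order of the histone genes was not tested. Of the myoblast markers, 7 of 10 reached the filter, with Myf5 (41.5 to 47.8 TPM), Des (384 to 467 TPM) and Myod1 (4.56 to 4.96 TPM) in all 4 libraries, while Pax7 and Myog were at most 0.0959 TPM. Of those 7, 5 had lower means with K97E, at a median of -0.14, and 4 did not overlap between groups (57.1%, beside 33.1% of all genes tested). Vcam1 stood at 63.8, 64.7, 45.8 and 52.6 TPM and Chrna1 at 49.8, 51.8, 40.2 and 41.3 TPM, at log2 differences of -0.44 (SE 0.11, limma unadjusted p = 0.00962, adjusted p = 0.965) and -0.37 (SE 0.09, limma unadjusted p = 0.00737, adjusted p = 0.965). The part of this marker list in the histone values was not tested. None of 6 epithelial markers reached the filter. Of 8 leukocyte markers Cd68 (3.17 to 5.48 TPM) and Lyz2 did so, both with the library order of H1f2, whereas Ptprc stood at 0.0496 TPM or less. Of 7 endothelial markers Cdh5 and Flt1 did, whereas Kdr and Tie1 were listed at 0.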

How the data were processed

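RNA-seq libraries of transfected C2C12 cells (2 with wild-type and 2 with K97E lamin A) were grouped by the genotype label. StringTie 2.1.7, per the file headers, took the Ensembl release 104 annotation (GRCm39) and estimated annotated transcripts only, with no strand option, and the submitters' processing notes also name HISAT2, SAMtools, FastQC and DESeq2. The deposited files give coverage, FPKM and TPM for each of 142434 transcripts, with no read counts. A gene value is the sum of the authors' TPM over its transcripts. Estimated reads are the product of deposited coverage and transcript length, over reads of 100 bases, and the part of a read credited to near-identical genes is a model estimate.

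TPM was divided by median-of-ratios factors, 0.5 was added before log2, and the 16304 genes whose mean TPM reached 0.5 entered the limma fit (version 3.58.1, R 4.3.3, trended eBayes with 5.54 total degrees of freedom), K97E minus wild type, two-sided. The fit was tested on simulated data whose spread was drawn from limma's own variance estimate. Those data held no library order shared across genes, so they do not test the fit under such an order. The members and gene lists were chosen with earlier results of these data known. The text names variant members at the filter, the 14 replication-dependent members with the highest mean TPM, members with an unadjusted p under 0.05, and of each pathway list fixed genes and the 2 with the smallest p; other genes named were chosen after their values were seen. Sharing of sequence was counted over stretches of 100 bases of GENCODE M21 transcripts. Alternatives were other pseudocounts, filters, scalings and variance models, FPKM as deposited, voom, a block for the replicate number, and leaving out single libraries. Python 3.11.15 with pandas 2.3.3 read the files and matplotlib 3.10.9 drew the figures.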

Additional observations from a re-analysis of the deposited data

How the results depend on the processing

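The files hold no read counts, so counting error could not be given, and with 2 libraries a group 1 library can set a direction. No histone gene and no gene of the pathway lists was called under the settings run, while the count over all genes was 1 in the main analysis, 12 without wild-type replicate 1, 3 with estimated RPM, 4 with voom, 2 with TPM as deposited or without a variance trend, and 0 without a filter, without wild-type replicate 2, without either K97E library or without genes with overlapping exons. With the replicate block the median of the replication-dependent genes was -0.038 and that of the variant genes 0.041, as without it, and 0 histone genes and 0 of all genes were called. The labels do not say whether replicate numbers pair the samples, and the main fit took no pairing. Across genes the within-group deviations of same-numbered libraries had a weak correlation of -0.1371, which cannot settle this. A crossed pairing, of wild-type replicate 2 with K97E replicate 1 and of the remaining libraries, was added after the data were seen. It called 30 of all genes, 0 histone genes and 0 genes of the pathway lists.

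The log2 ratio of summed variant TPM, 0.073, was 0.017 after median-of-ratios scaling and 0.19 without H3f3b, and the variant median of 0.041 was 0.0056 with estimated RPM, 0.14 without genes with overlapping exons and -0.019 to 0.14 with a library left out. The cause was not tested. Values of genes that changed direction were, with TPM as deposited, 0.014 for H1f0, 0.033 for Macroh2a1, 0.047 for H2bc13, 0.0039 for Slbp, 0.041 for Lsm10 and 0.048 for H2aj. With FPKM as deposited they were 0.0039 for Macroh2a1, 0.016 for H2bc13, 0.012 for Lsm10 and 0.019 for H2aj, and with quantile normalization 0.033 for H1f0. With voom they were -0.015 for H3f3a, 0.0056 for H2bc13, 0.019 for Slbp, 0.047 for Hinfp, 0.024 for Znhit1 and 0.017 for H2aj, and with estimated RPM, a scale added after the data were seen, -0.047 for H3f3a and 0.015 for Hinfp.

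With 1 library left out, where the lone library of a group is assumed to vary like the others, the direction changed within these ranges: H1f0 -0.15 to 0.065, H1f10 -0.12 to 0.21, H1f2 -0.43 to 0.15, H2ac11 -0.059 to 0.18, H2ac12 -0.048 to 0.27, H2ac24 -0.026 to 0.34, H2aw -0.37 to 0.079 and H2az2 -0.046 to 0.32. They were -0.12 to 0.33 for H2bc11, -0.3 to 0.41 for H2bc12, -0.39 to 0.37 for H2bc13, -0.49 to 0.2 for H2bc8, -1.0 to 0.03 for H3c14, -0.034 to 0.055 for H3f3c and -0.24 to 0.67 for H4c12. They were -0.25 to 0.017 for Hinfp, -0.14 to 0.11 for Lsm10, -0.068 to 0.019 for Macroh2a1, -0.15 to 0.017 for Npat and -0.17 to 0.058 for Slbp. They were -0.75 to 0.26 for H1f1, -0.6 to 0.37 for H1f5, -0.35 to 0.59 for H3c15, -3.21 to 2.13 for H2ac18 and -0.089 to 0.071 for H2aj. The other histone and pathway genes named with a log2 difference, and Vcam1 and Chrna1, kept their direction under the settings run.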
